A study of Mus musculus with 23 samples.

Results

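The response of Q111 cells to the compound ZDON was measured on 3 arrays of ZDON-treated cells, set against 3 arrays of control cells of the same line. These 6 arrays were chosen by their sample labels from the 23 Illumina mouse bead arrays of the series, and every probe with a gene symbol was considered, 19851 in all. A probe was kept where its signal exceeded the array's median on 2 or more arrays, which 12504 of them did. Keeping the brightest probe of each gene left 9849 genes, and all of them were tested.

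Q111 is a mouse striatal cell line from a transgenic model of Huntington disease, in which huntingtin carries an expanded run of glutamines, and Q7 is the control line that the labels call wild type. For 12 h cells had received ZDON or Boc-DON, each at 50 µM, or cystamine at 250 µM, and further samples were labelled as control. The stated purpose was to look at inhibition of transglutaminase 2 (TG2), and total RNA was labelled with biotin. The groups described here are Q111 with ZDON, Q111 with Boc-DON, Q7 with ZDON and the controls of each line, with 3 arrays per group. The cystamine arms and Q7 with Boc-DON enter the model and the line genes. The labels give the controls no vehicle and no time, so effects of a vehicle or of time cannot be told apart from those of ZDON. Each genotype is represented by 1 line. Replicates 1, 2 and 3 lay on BeadChips 1, 2 and 3. Every group had all of them except Q7 with Boc-DON, which had replicates 1 and 2. Nothing says whether replicates came from separate cultures, so the p-values reflect the spread among these arrays, which may be technical. Median intensities before normalization lay between 107.4 and 165 over the 23 arrays. Their number limits the precision. One array stood apart: replicate 3 of Q7 with ZDON held an intensity of 4531.3 on the probe that the intensity table calls 18S rRNA, against 14244.6 to 27122.2 on the other 22 arrays.

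Transglutaminase 2 joins glutamine residues of one protein to lysines or polyamines of another, and polyglutamine proteins such as mutant huntingtin have been reported among its substrates. Inhibitors of the enzyme have been studied in Huntington disease for that reason. In stressed cells, the transcription factor NRF2 raises antioxidant and glutathione genes, ATF4 raises genes of amino acid supply, and p53 raises the cell cycle inhibitor Cdkn1a. Replication-dependent histone genes are transcribed while DNA is being copied, many of them through promoters with CCAAT boxes and octamer motifs.

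ZDON changed 18 of the 9849 genes in Q111 (0.183%), 11 of them higher (0.112%) and 7 lower (0.0711%), at a Benjamini-Hochberg adjusted p under 0.05 in limma with the BeadChip as a block. The genes that rose included Cdkn1a, the cystine transporter Slc7a11, the haem-degrading enzyme Hmox1, the glutathione synthesis subunit Gclm and the glycine transporter Slc6a9. The genes that fell included the epidermal gene Lce1f, the tendon transcription factor Scx and the histone gene H2bc22. Folds lay between 1.35 and 2.11. The RNA is that of whole cultures, so fewer cells with a transcript and less of it per cell cannot be told apart. Over all 19851 probes with a symbol, with no filter, 13 passed (0.0655%). Without the block 0 genes passed, and 680 of the 9849 had an unadjusted p under 0.05 in limma. With the block 1031 (10.5%) did. The adjusted p of the 18 without the block lay between 0.0693 and 0.471.

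The 18 genes moved in 1 direction on all 3 chips, where 17.1% of all genes were higher on every chip and 14.2% lower on every chip. In 16 of the 18 the ZDON and control arrays did not overlap, against 13.6% of all genes. The test chose genes with such patterns, so these counts describe the genes and support nothing. The 18 rested unevenly on single arrays. Leaving out 1 of the 6 arrays at a time left between 2 and 13 genes past the threshold, 2 without ZDON replicate 1, 2 without ZDON replicate 2, 3 without control replicate 1, 5 without control replicate 2 and 3 without control replicate 3. Cdkn1a and Lce1f passed in all 6 of these fits. Leaving out 1 array of another group gave between 13 and 49 genes, with 49 without Q111 cystamine replicate 3, 43 without Q7 control replicate 3, 38 without Q7 ZDON replicate 2 and 33 without Q7 ZDON replicate 3.

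**Figure D1:**
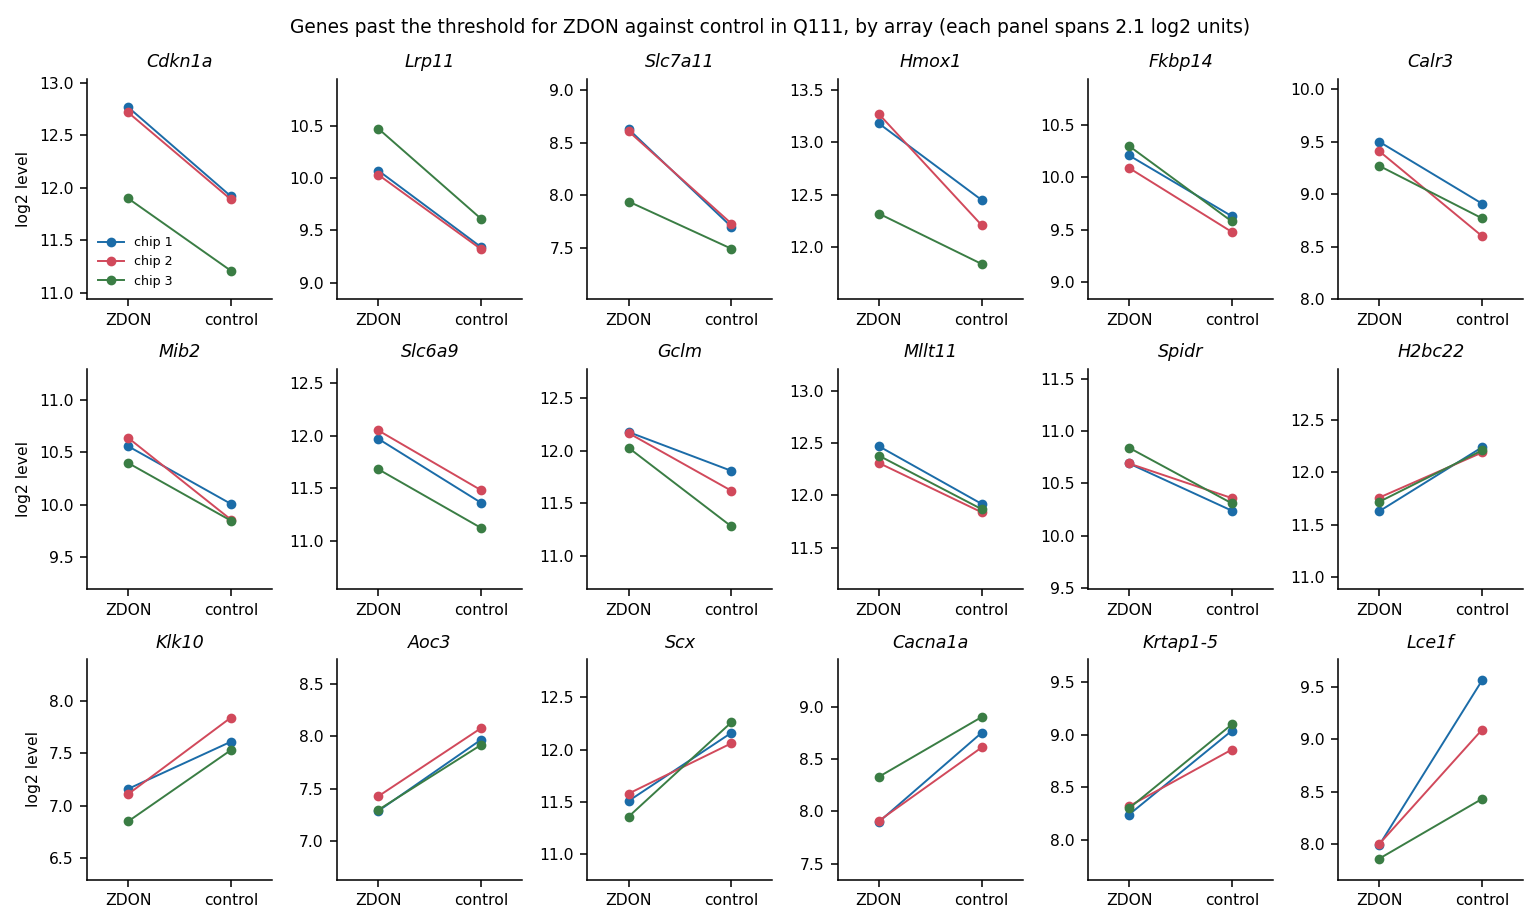
Normalized log2 level (vertical axis) of the 18 genes on the ZDON arrays (left) and the control arrays (right) of Q111, with a line joining the 2 arrays of each BeadChip and every panel spanning 2.1 log2 units. All lines of a panel run the same way. Chip 3 lies apart from chips 1 and 2 for Cdkn1a and Hmox1, where the groups overlap across chips.

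Promoters of 3 of the changed genes are shown because they hold short sequences tied by textbook knowledge to the gene groups described here: Slc7a11 for ATF4, Gclm for NRF2 and H2bc22 for histone genes. They are the 250 bases before the start site in RefSeq, build GRCm38.p6, read along the gene's strand. Of the 18 genes, 12 were matched in the promoter table. Capitals mark TGATGNAA (the ATF4 composite element) in Slc7a11, TGACNNNGC (the core of the antioxidant response element) in Gclm and CCAAT in H2bc22, each searched on both strands. Slc7a11 lies at chr3:50443614-50443863 on the minus strand, Gclm at chr3:122245307-122245556 on the plus strand and H2bc22 at chr13:21787238-21787487 on the plus strand.
Slc7a11: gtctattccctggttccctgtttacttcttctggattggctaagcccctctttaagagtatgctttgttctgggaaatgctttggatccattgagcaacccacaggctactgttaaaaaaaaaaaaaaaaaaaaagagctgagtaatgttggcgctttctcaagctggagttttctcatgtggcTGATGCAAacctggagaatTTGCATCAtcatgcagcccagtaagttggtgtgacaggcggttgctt
Gclm: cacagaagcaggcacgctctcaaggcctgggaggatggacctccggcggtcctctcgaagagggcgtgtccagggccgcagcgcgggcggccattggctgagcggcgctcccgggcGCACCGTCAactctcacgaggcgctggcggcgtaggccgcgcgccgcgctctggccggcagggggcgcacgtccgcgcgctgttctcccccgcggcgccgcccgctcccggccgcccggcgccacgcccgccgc
H2bc22: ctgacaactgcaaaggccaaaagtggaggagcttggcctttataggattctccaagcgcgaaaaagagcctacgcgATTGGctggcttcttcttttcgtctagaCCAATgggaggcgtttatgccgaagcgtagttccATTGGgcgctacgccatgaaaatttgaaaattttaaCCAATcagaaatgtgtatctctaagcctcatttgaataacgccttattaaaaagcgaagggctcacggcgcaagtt
The Slc7a11 window holds 2 matches of its element, the Gclm window 1 match and the H2bc22 window 4 matches. Among 32851 promoters of this length, TGATGNAA was found in 3.45%, TGACNNNGC in 10.2% and CCAAT in 33.8%. A match is a description of these letters, and binding was not measured.

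Genes of cystine uptake, glutathione synthesis and haem breakdown were among those that rose. Slc7a11, the light chain of the cystine-glutamate exchanger, had log2 levels of 8.63, 8.61 and 7.94 in ZDON-treated cells and 7.70, 7.73 and 7.49 in control cells. Every ZDON array lay above every control array, with the smallest gap on chip 3. The difference was 0.76 ± 0.14 (SE, n = 3 each), a 1.69-fold rise with a limma adjusted p of 0.0236. Hmox1 had 13.18, 13.27 and 12.32 with ZDON and 12.45, 12.21 and 11.84 in controls. Its ZDON array on chip 3 lay under the control array of chip 1, so the groups overlapped, while each chip on its own showed a higher level with ZDON. The difference was 0.75 ± 0.13 (adjusted p = 0.0189, limma). Gclm, the modifier subunit of the enzyme that starts glutathione synthesis, had 12.18, 12.17 and 12.03 with ZDON and 11.81, 11.62 and 11.28 in controls. Its groups did not overlap, and the difference was 0.56 ± 0.11 (adjusted p = 0.0402, limma).

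Of 32 NRF2 target genes tested, these 3 were called higher and none lower, where 0.112% and 0.0711% of all genes were. The median log2 difference of the list was 0.14, beside 0.01 over all 9849 genes, and 22 of the 32 lay above 0 (51.4% of all genes did). The next member, Srxn1, which reduces oxidised peroxiredoxins, had a difference of 0.61 ± 0.13 and an adjusted p of 0.0511 in limma, just outside the threshold. On all 3 chips 13 members were higher and 4 lower, where 17.1% and 14.2% of all genes were. Among the 10 members below 0 were Prdx1 at −0.18 (adjusted p = 0.651, limma) and Nqo1 at −0.08 (adjusted p = 0.855). TGACNNNGC stood in the promoter window of 5 of 26 list genes with an entry, against 11.5% of all 27025 genes in the table. Hmox1 was also the 1 called member of the list of metallothioneins and metal response (14 tested, median 0.00).

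The amino acid transporters Slc7a11 and Slc6a9 were the called members of the ATF4 list, 2 of 39, where 0.183% of all genes were called. Slc6a9, the glycine transporter GlyT1, had 11.97, 12.05 and 11.68 in ZDON-treated cells and 11.36, 11.48 and 11.12 in controls. The ZDON arrays lay above all controls, and the difference was 0.58 ± 0.11 (adjusted p = 0.0236, limma). Of the 39 ATF4 targets tested, 33 lay above 0, 23 were higher on all 3 chips and 18 had an unadjusted p under 0.05. Of all genes, 51.4%, 17.1% and 10.5% did. Their median was 0.17, with chip medians of 0.15, 0.26 and 0.13. The members next in line were the transcription factor Atf5 at 0.44 ± 0.11 (adjusted p = 0.129) and Cth, which makes cysteine from cystathionine, at 0.55 ± 0.16 (adjusted p = 0.171). TGATGNAA stood in the windows of 11 of the 32 list genes with an entry, against 3.91% of all genes. The list of the unfolded protein response of the ER had no called member among 21 (median 0.09). In it Ero1b, an oxidase of the ER, stood at 0.52 (adjusted p = 0.128), Herpud1 at −0.37 (adjusted p = 0.171) and the chaperone Hspa5 at 0.30 (adjusted p = 0.477).

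Cdkn1a, which encodes the cell cycle inhibitor p21, had log2 levels of 12.77, 12.72 and 11.90 with ZDON and 11.92, 11.89 and 11.21 in controls. Chip 3 was lower in both groups, and its ZDON array lay just under the control array of chip 1. The difference was 0.79 ± 0.10, a 1.73-fold rise with a limma adjusted p of 0.00108. A second Cdkn1a probe gave 0.49 ± 0.18 and did not pass (unadjusted p = 0.0122, adjusted p = 0.451, limma over all probes). Cdkn1a was the called gene of 28 p53 targets tested, where 0.183% of all genes were called. Of these, 20 lay above 0 (median 0.12, against 51.4% of all genes above 0) and 13 were higher on all chips (17.1% of all genes). Trp53inp1, a stress-induced p53 partner, stood at 0.81 ± 0.20 (adjusted p = 0.111). Mdm2, the ubiquitin ligase of p53, stood at 0.61 ± 0.18 (adjusted p = 0.171), and the growth arrest gene Gadd45a at 0.39 ± 0.11 (adjusted p = 0.154). None of the 3 passed the test.

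The other genes that rose serve varied functions. Mib2, a ubiquitin ligase that acts on Notch ligands, had 10.56, 10.64 and 10.40 with ZDON and 10.01, 9.86 and 9.85 in controls, a difference of 0.63 ± 0.10 (adjusted p = 0.0103, limma). Mllt11, a small transcriptional cofactor, had 12.47, 12.31 and 12.38 with ZDON and 11.92, 11.84 and 11.87 in controls. Its difference was 0.51 ± 0.08 (adjusted p = 0.0165, limma) and its groups did not overlap. Lrp11, a protein of the LDL receptor family, had 10.07, 10.03 and 10.47 with ZDON and 9.34, 9.32 and 9.61 in controls (0.76 ± 0.14, adjusted p = 0.0189). Fkbp14, a prolyl isomerase of the ER that helps collagen fold, had 10.21, 10.09 and 10.30 with ZDON and 9.63, 9.48 and 9.58 in controls (0.64 ± 0.13, adjusted p = 0.0394). Spidr, a scaffold of homologous recombination, had 10.69, 10.69 and 10.84 with ZDON and 10.24, 10.36 and 10.31 in controls (0.44 ± 0.09, adjusted p = 0.0486). In these 5 genes no ZDON array reached down to a control array. Calr3, a calreticulin known from the testis, had 9.50, 9.41 and 9.27 with ZDON and 8.91, 8.60 and 8.77 in controls (0.63 ± 0.13, adjusted p = 0.0394). Its 4 probes disagreed, with differences of 0.63, 0.79, 0.01 and −0.07, so its rise rests on the probe chosen. Of the 18 genes, 16 had 1 probe.

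Lce1f had the largest difference of the 18. This gene of the cornified envelope of skin had log2 levels of 7.99, 8.0 and 7.86 with ZDON and 9.56, 9.09 and 8.43 in controls. The ZDON arrays lay close together while the controls were spread over more than 1 log2 unit, with no overlap. The difference was −1.08 ± 0.14, a 2.11-fold fall (adjusted p = 0.00108, limma). A second gene of the skin and hair, the keratin-associated Krtap1-5, had 8.24, 8.32 and 8.30 with ZDON and 9.04, 8.86 and 9.10 in controls (−0.71 ± 0.12, adjusted p = 0.0189, limma). Klk10, a secreted protease of the kallikrein family, had 7.16, 7.11 and 6.85 with ZDON and 7.61, 7.84 and 7.53 in controls (−0.62 ± 0.12, adjusted p = 0.0377, limma). Its ZDON mean stood at percentile 53.9 of its arrays, so it was close to the array median, where no detection p was given.

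Scx, the transcription factor scleraxis of tendon cells, had 11.51, 11.58 and 11.36 with ZDON and 12.16, 12.06 and 12.26 in controls. All ZDON arrays lay under all controls, by 0.68 ± 0.12 in the mean (adjusted p = 0.0189, limma). It was the called member of 28 genes of TGF-beta and BMP signalling, where 0.183% of all genes were called. Of the 28, 21 lay below 0 (median −0.11, against 48.6% of all genes below 0). There Id4, an inhibitor of bHLH factors, stood at −0.53 (adjusted p = 0.0917), Id1 at −0.34 (adjusted p = 0.117) and the BMP antagonist Nbl1 at −0.45 (adjusted p = 0.141). Cacna1a, the pore subunit of P/Q-type calcium channels, had 7.90, 7.91 and 8.33 with ZDON and 8.75, 8.61 and 8.90 in controls (−0.71 ± 0.13, adjusted p = 0.0189, limma). Aoc3, an amine oxidase of vessels and fat, had 7.29, 7.43 and 7.30 with ZDON and 7.97, 8.08 and 7.92 in controls (−0.65 ± 0.12, adjusted p = 0.0189, limma). Neither gene showed overlap between the groups.

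Histone genes lay lower with ZDON as a list, with 1 member past the threshold (0.183% of all genes passed). H2bc22, which encodes an H2B histone, had 11.63, 11.76 and 11.72 in ZDON-treated cells and 12.24, 12.19 and 12.21 in controls. The 3 controls lay close together, and every ZDON array lay under them. The difference was −0.51 ± 0.09 (adjusted p = 0.0236, limma). Of 37 histone genes tested, 32 lay below 0 and 22 were lower on all 3 chips, where 48.6% and 14.2% of all genes were. The median was −0.25, with chip medians of −0.27, −0.23 and −0.31. Summed over the list, the normalized intensity lay between 107148 and 110055 on the ZDON arrays and between 119151 and 123395 on the control arrays.

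By family, 14 of 14 H2B genes named H2bc lay below 0, 11 of them on every chip, with a median of −0.40 and a range of −0.52 for H2bc13 to −0.21 for H2bc8. The H2B gene H2bu2, counted apart, stood at −0.07, with chip differences of −0.20, 0.26 and −0.28. H2bc13 itself had 10.53, 10.56 and 10.55 with ZDON and 10.93, 11.09 and 11.17 in controls, and its adjusted p was 0.0649 in limma. H2bc14 stood at −0.49 ± 0.10 (adjusted p = 0.0503), H2bc9 at −0.47 ± 0.10 (adjusted p = 0.0553) and the H4 gene H4c1 at −0.45 ± 0.10 (adjusted p = 0.0553), all just outside the threshold. The 7 H4 genes all lay below 0 (median −0.25), as did 6 of 7 H2A genes (median −0.17). Of 5 H3 genes, 2 lay below 0 (median 0.15). Those named H3c stood at −0.20 for H3c3, −0.31 for H3c4 and 0.19 for H3c7, and the median is the value of H3f3b. H3f3a, a replication-independent H3.3 gene, stood at the other end with 0.36, made of chip differences of −0.09, 0.19 and 0.97. The count of histone genes past the threshold, all lower, was 5 with no background correction and 5 with the deposited log2 values. These settings hold nearly the same values and are not separate checks. The count was 0 with median scaling, without the block and with the compared arrays alone. H2bc22 passed in none of the 6 fits that left out a compared array (adjusted p 0.109 to 0.147, limma). Histone genes of a family have nearly the same coding sequence, the probe sequences were not used here, and one transcript may reach several probes, so the members are not separate measurements.

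Of the 32 histone genes with a promoter entry, 27 held CCAAT in the window, against 37.5% of all genes in the table. ATTTGCAT, the octamer, stood in 9 of them, against 1.81%. All 12 H2bc genes with an entry held CCAAT, and 6 of the 12 held the octamer. Other lists of cell cycle genes had medians near 0. The 35 genes of DNA replication and S phase had a median of 0.01 and no called member, with thymidine kinase Tk1 at −0.29 (adjusted p = 0.361), the helicase subunit Mcm2 at −0.17 (adjusted p = 0.509) and E2f1 at 0.17 (adjusted p = 0.509). The 27 mitosis genes had a median of −0.04 and no called member. Of these, 8 were lower on all 3 chips (29.6%, against 14.2% of all genes). A further 3 were higher on all 3 chips (11.1%, against 17.1%). Cdc20 stood at −0.42 and Birc5 at −0.29 (adjusted p = 0.185 each, limma), and Mad2l1 at 0.30 (adjusted p = 0.321).

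**Figure D2:**
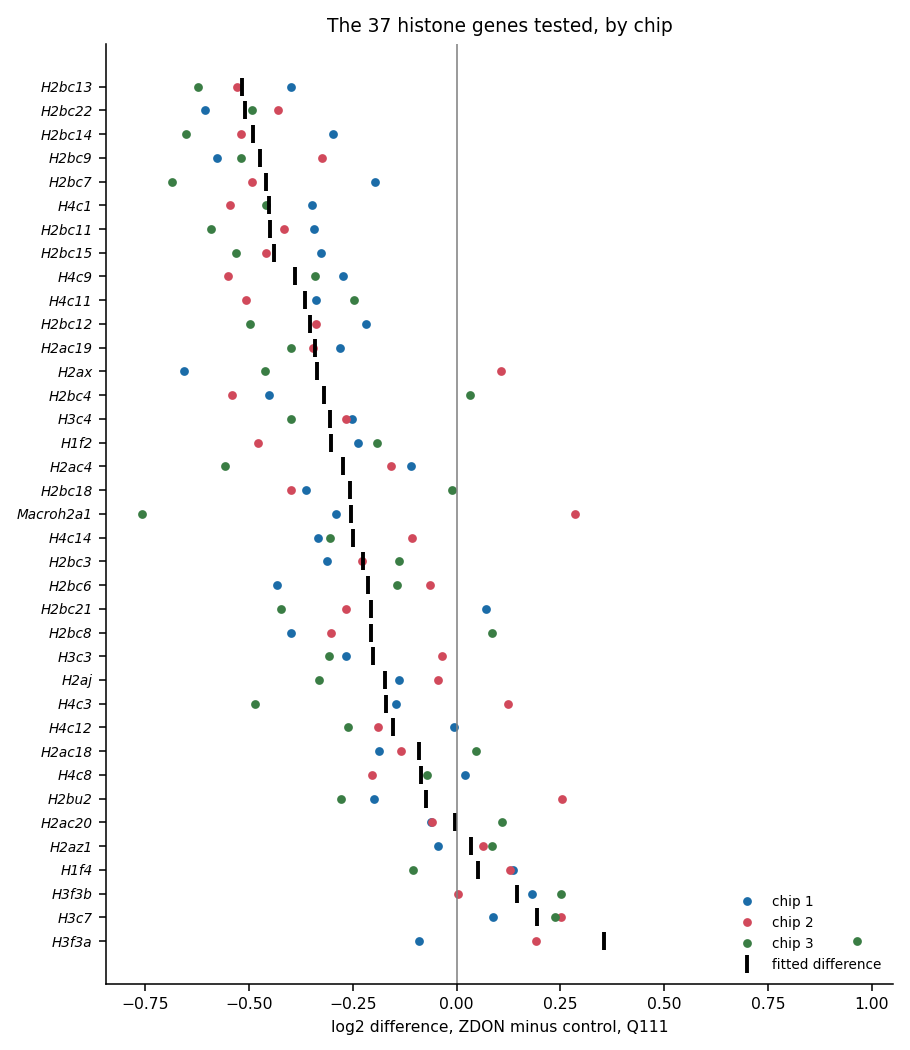
Log2 difference between ZDON and control in Q111 (horizontal axis) for the 37 histone genes tested, with 1 point per BeadChip and a black bar at the fitted difference. The H2bc genes fill most of the upper rows, from −0.52 for H2bc13, and H3f3a lies at the bottom with 0.36.

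Of 23 targets of YAP and SRF, 19 lay below 0 and 13 on every chip (median −0.17), where 48.6% and 14.2% of all genes did, and none was called. Of 39 genes of collagens and matrix, 28 lay below 0 and 8 on every chip (median −0.11), also without a call. The actin-binding calponin Cnn2 led with −0.51 ± 0.11 (adjusted p = 0.0553), followed by Fhl2 at −0.31 (adjusted p = 0.171) and the smooth muscle gene Tagln at −0.57 (adjusted p = 0.286). Of 22 Wnt and Notch targets, 15 lay below 0 and 10 on every chip (median −0.08), among them the ligand Wnt4 at −0.76 ± 0.16 (adjusted p = 0.0503) and the matricellular Ccn5 at −0.80 ± 0.19 (adjusted p = 0.0782). Cytosolic chaperones were mixed, with 21 of 33 above 0 (median 0.07). Hspa4l had 8.80, 8.64 and 8.87 with ZDON and 8.15, 8.07 and 7.93 in controls, a difference of 0.72 ± 0.16 with an adjusted p of 0.0597. The related nucleotide exchange factor Hsph1 stood at 0.43 (adjusted p = 0.0649) and Hsp90aa1 at 0.39 (adjusted p = 0.214).

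Of the 44 lists, 38 had no called member, and their medians lay between −0.22 and 0.18. The 19 genes of cholesterol synthesis had the highest of these medians, 0.18, with lanosterol synthase Lss at 0.44 (adjusted p = 0.205) and chip medians of 0.22, 0.20 and 0.00. Of 36 proteasome genes, 30 lay above 0, by a median of 0.09, which was 0.05 under median scaling. The 42 genes of lysosome and autophagy had a median of 0.11, with the lysosomal membrane protein Lamp2 at 0.44 (adjusted p = 0.223). The respiratory chain (50 genes), glycolysis (18) and the TCA cycle (17) had medians of 0.00, −0.02 and −0.04. The immediate early list had a median of 0.00 over 36 genes, with the phosphatase Dusp1 at 0.54 ± 0.12 (adjusted p = 0.0553). The 7 enzymes that use glutamine had a median of 0.14, led by asparagine synthetase Asns, also an ATF4 target, at 0.32 (adjusted p = 0.277).

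**Figure D3:**
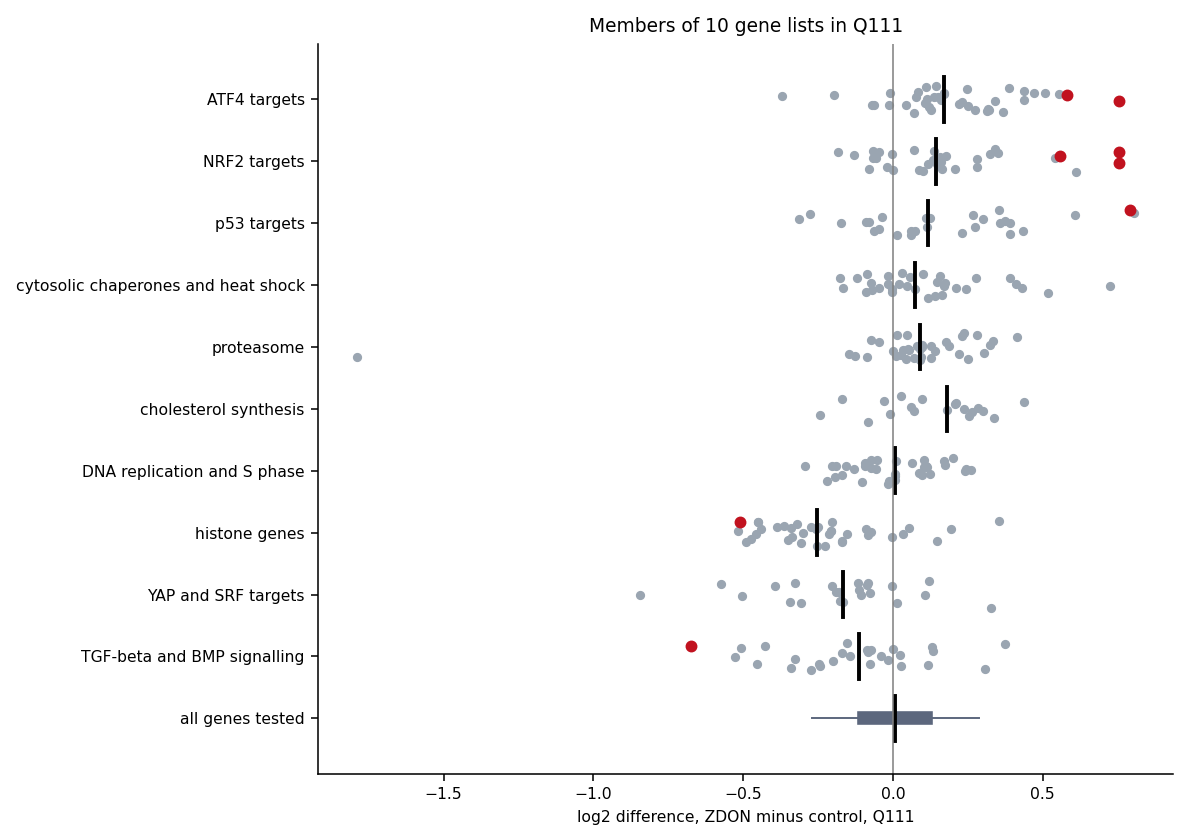
Log2 difference between ZDON and control in Q111 (horizontal axis) of the members of 10 gene lists, 1 point per gene, with called genes in red and the list median as a black bar. The bottom row gives all 9849 genes tested, with a thick bar from the 25th to the 75th and a thin line from the 5th to the 95th percentile (−0.27 to 0.29). The histone list lies lowest by its median (−0.25), and the proteasome gene Psmc1 lies far to the left at −1.79.

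The genes tied to TG2 and to huntingtin in the study did not pass the test. Tgm2, which encodes TG2, had 7.49, 7.55 and 8.35 with ZDON and 7.80, 7.75 and 8.70 in controls, lower with ZDON on each chip but far apart between chips. The difference was −0.28 with a 95% interval of −0.83 to 0.26 (adjusted p = 0.766, limma). Tgm1 stood at −0.10 and Tgm4 at 0.03. Htt had 8.95, 9.21 and 8.81 with ZDON and 8.79, 8.90 and 8.72 in controls, a difference of 0.18 (interval 0.02 to 0.35, adjusted p = 0.422). Bdnf, the neurotrophin that huntingtin supports, stood at 0.07 (adjusted p = 0.913). The mitochondrial coactivator Ppargc1a stood at 0.22 (adjusted p = 0.638) and its target Cycs, cytochrome c, at 0.17 (adjusted p = 0.544).

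Of 12 markers of neural progenitors on the array, 8 passed the filter, and all 8 lay above the array median on the 6 arrays. Vimentin (Vim) stood at percentile 99.6 of the arrays with ZDON and 99.7 in controls. For nestin (Nes) the percentiles were 84.9 with ZDON and 86.6 in controls, and for Sox2 71.1 with ZDON and 72.2 in controls. Dlx5 lay lowest of the 8, at 59.2 with ZDON and 59.1 in controls. Of 7 markers of striatal projection neurons tested, 3 lay above the array median on all 6 arrays, and the dopamine receptor Drd2 stood at percentile 45.7 with ZDON and 33.0 in controls. None of the 41 tested markers of cell types passed the test. Of 13 fibroblast markers on the array, 9 passed the filter, and 8 of the 9 lay above the array median on the 6 arrays. S100a4 stood at percentile 97.9 with ZDON and 97.8 in controls, and Lox at 91.6 with ZDON and 92.6 in controls. The filter itself asked for signal above the median, so these counts cannot name a cell type. Of the 9 fibroblast markers, 8 lay below 0 (median −0.22), with summed normalized intensities of 17085 to 20649 with ZDON and 15985 to 22345 in controls. Their part in the matrix and tension genes was not tested.

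The same compound, dose and time were measured in Q7. There ZDON changed 5 of 9849 genes (0.0508%), 2 higher (0.0203%) and 3 lower (0.0305%), with 767 at an unadjusted p under 0.05 (7.79%), and 3 of them were also changed in Q111: Cdkn1a, Hmox1 and Lce1f. These 3 are 16.7% of the Q111 genes and 60% of the Q7 genes. In Q7, Lce1f had 8.19, 8.29 and 8.17 with ZDON and 9.60, 9.47 and 9.28 in controls (−1.23 ± 0.14, limma adjusted p = 0.00028). Hmox1 had 13.06, 13.20 and 12.66 with ZDON and 12.21, 12.40 and 11.82 in controls (0.83 ± 0.13, adjusted p = 0.0127). Cdkn1a had 12.63, 12.55 and 11.79 with ZDON and 11.86, 11.99 and 11.40 in controls (0.58 ± 0.10, adjusted p = 0.022). Lce1f was free of overlap in Q7, as was Hmox1, while Cdkn1a overlapped across chips. The other 2 genes that changed in Q7 were Rpl22 and Chodl, which were chosen after their values were seen. The ribosomal protein gene Rpl22 stood at −0.39 (adjusted p = 0.0649) in Q111 and −0.61 (0.00583) in Q7, and the lectin gene Chodl at −0.29 (0.507) in Q111 and −0.92 (0.0127) in Q7. Without Q7 ZDON replicate 3, the array that stood apart, 11 genes passed in Q7 and 33 in Q111. Without Q7 control replicate 3, 8 passed in Q7, and without Q7 ZDON replicate 2 or Q7 control replicate 1, 1 passed.

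All 18 genes of Q111 had the same sign in Q7, where 59.0% of all genes did. In 17 of the 18 all 3 chips of Q7 ran in the Q111 direction, against 15.8% of all genes, and 15 had an unadjusted p under 0.05 in Q7. The 2 lines have separate control arrays but sat on the same chips and shared the same fit, with the same spread per gene. A gene of small spread passes more easily in both lines. The 15 and the 3 genes changed in both lines are therefore no independent replication. The median size was 0.65 in Q111 and 0.39 in Q7, and 16 of the 18 were larger in Q111, the line in which they were chosen. The difference between the lines was tested for each gene. None of 9849 passed (0.0% called) in limma, and 395 had an unadjusted p under 0.05, which is 4.01%. Among the 18, Klk10, Krtap1-5, Scx and Slc6a9 had an unadjusted p under 0.05 for the difference, and none passed after adjustment. The H2bc genes had a median of −0.40 in Q111 and −0.28 in Q7, where 13 of the 14 lay below 0.

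**Figure D4:**
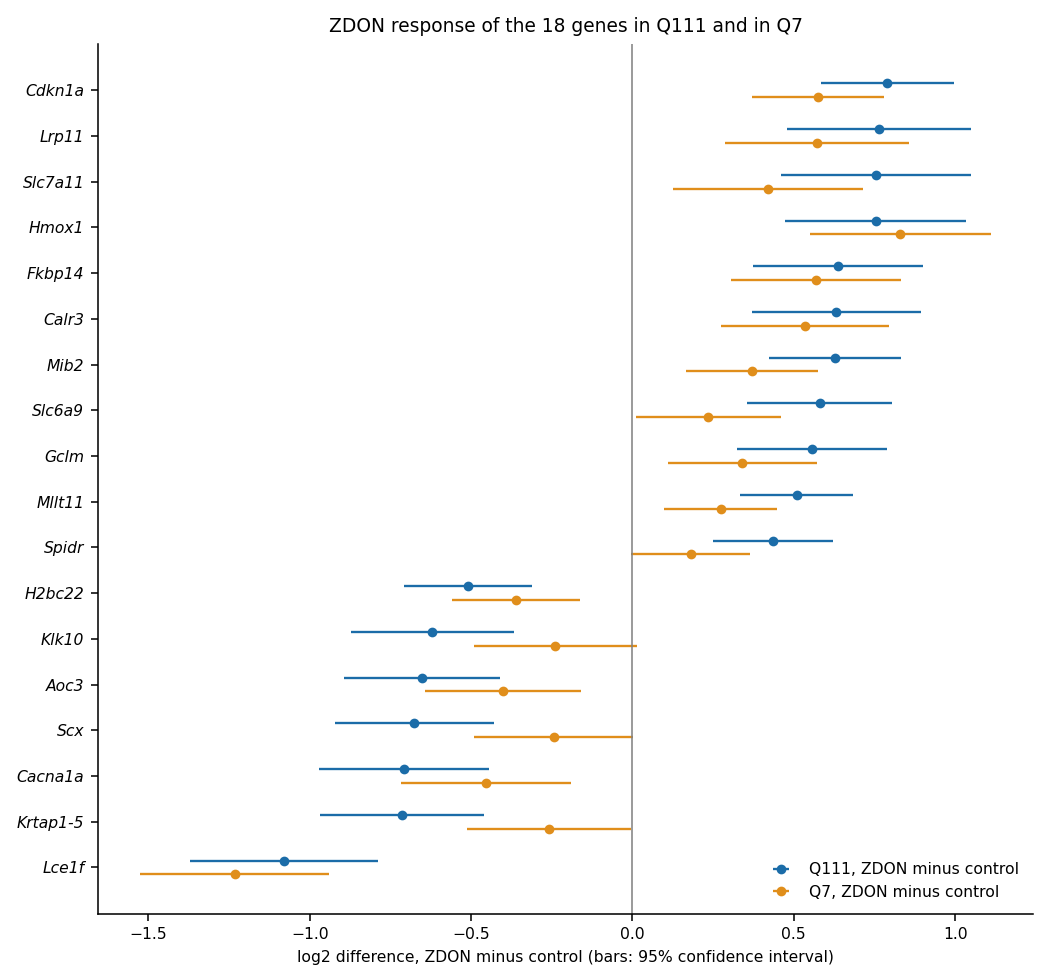
Log2 difference between ZDON and control (horizontal axis) of the 18 genes in Q111 (blue, upper of each pair) and in Q7 (orange), with 95% confidence intervals of limma. Every pair lies on one side of 0. Lce1f and Hmox1 are the 2 genes whose difference is larger in Q7.

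Boc-DON, which the study also gave at 50 µM for 12 h, was compared directly with ZDON in Q111. The series holds this 1 pair of compounds at a matched dose, so no adjustment over pairs was made. ZDON arrays were higher than Boc-DON arrays in 6 of 9849 genes (0.0609%) and lower in none, with 579 genes at an unadjusted p under 0.05 (5.88%). Without the block 0 passed in limma, and without Boc-DON replicate 1 or 3, or ZDON replicate 1 or 2, 0 passed. Without Boc-DON replicate 2, 2 passed. Of the 18 genes that ZDON changed, 1 differed between the compounds, Slc7a11. It had 8.63, 8.61 and 7.94 with ZDON and 7.69, 7.68 and 7.31 with Boc-DON, without overlap, a difference of 0.83 ± 0.14 (adjusted p = 0.0236, limma).

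The other 5 genes lay near the control level with ZDON or between the groups. Angptl4, a secreted inhibitor of lipoprotein lipase, had 11.20, 11.40 and 11.36 with ZDON and 10.57, 10.64 and 10.51 with Boc-DON, a difference of 0.74 ± 0.12 (adjusted p = 0.0231, limma). Cyp26b1, which degrades retinoic acid, had 11.46, 11.43 and 11.42 with ZDON and 10.80, 10.98 and 10.43 with Boc-DON (0.70 ± 0.11, adjusted p = 0.0231). The homeobox gene Cdx2 differed by 0.61 ± 0.10 (adjusted p = 0.0236). The deoxycytidylate deaminase Dctd differed by 0.57 ± 0.10 and the phosphatase Dusp4 by 0.57 ± 0.10 (adjusted p = 0.0437 each), both outside the naming rule and chosen after their values were seen. None of these 5 passed the test against control with ZDON, and Cyp26b1 stood at −0.36 (adjusted p = 0.182) there. Against the same Q111 controls, Boc-DON gave −0.68 for Angptl4 (adjusted p = 0.0109) and −1.06 for Cyp26b1 (adjusted p = 4.97e-05). The 2 compounds share these control arrays.

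For the other 17 genes a difference between the compounds did not pass the test. The 95% interval of ZDON minus Boc-DON was 0.31 to 0.88 for Hmox1 (adjusted p = 0.169), 0.33 to 0.78 for Slc6a9 (0.0736), 0.28 to 0.80 for Calr3 (0.169) and −0.64 to −0.24 for H2bc22 (0.141). In these 4 genes Boc-DON against control stood at 0.16, 0.03, 0.09 and −0.07, side by side with ZDON at 0.75, 0.58, 0.63 and −0.51. Other genes had a Boc-DON difference that passed the test itself, in a comparison with 79 genes called (0.802%). Boc-DON against control gave 0.56 for Cdkn1a (adjusted p = 0.0109), 0.72 for Lrp11 (0.0155), 0.48 for Mib2 (0.0254) and 0.44 for Spidr (0.0254), beside 0.79, 0.76, 0.63 and 0.44 with ZDON. It gave −1.31 for Lce1f, −0.61 for Krtap1-5 (0.0246) and −0.67 for Cacna1a (0.0155), beside −1.08, −0.71 and −0.71 with ZDON. For Lrp11 the interval was −0.24 to 0.33, for Cacna1a −0.30 to 0.22 and for Spidr −0.19 to 0.18. All 14 H2bc genes lay lower with ZDON than with Boc-DON (median −0.35), and 10 had an unadjusted p under 0.05. The smallest adjusted p among them was 0.141.

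**Figure D5:**
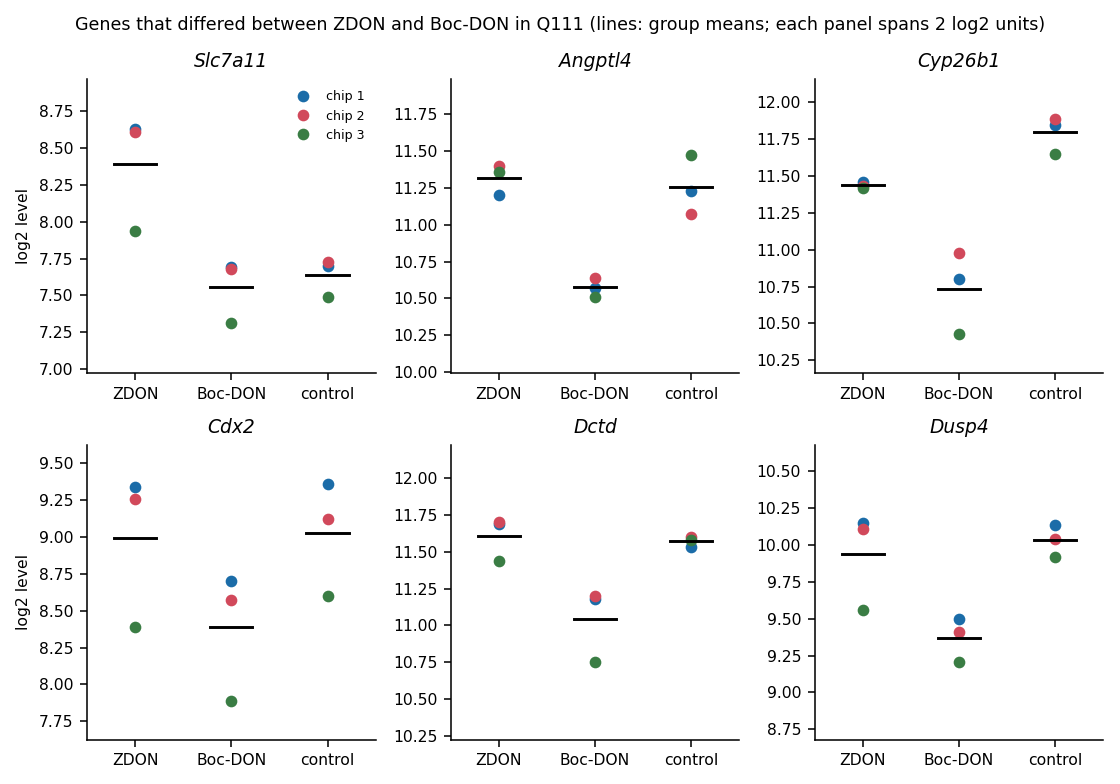
Normalized log2 level (vertical axis) of the 6 genes that differed between ZDON and Boc-DON in Q111, on the arrays of ZDON, Boc-DON and control, coloured by BeadChip, with group means as lines. ZDON lies above Boc-DON on each chip in all 6 panels, and Slc7a11 is the one in which Boc-DON and control lie together.

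The title of the series speaks of transcriptional dysregulation, so the ZDON response was read against the line difference. Genes that differ between treated Q111 and Q7 cells were taken from the Boc-DON and cystamine arms, which do not include the arrays compared here. There were 1064 such genes (10.8%), 637 higher in Q111 and 427 lower. With ZDON, 511 of the 1064 (48.0%) had a difference towards the Q7 level, and 47.3% of the other genes did when read the same way. Of the 1064, 7 were changed by ZDON, 0.658% against 0.183% of all genes. Of these, 4 moved towards Q7 (Aoc3, H2bc22, Klk10 and Krtap1-5) and 3 away from it (Cdkn1a, Mib2 and Slc6a9). All 7 were higher in Q111 than in Q7 in those arms. Cdkn1a, Mib2 and Krtap1-5 also passed the test for Boc-DON against control in Q111, and Boc-DON is an arm used here. Both comparisons came from the same fit, with the same spread per gene and the same BeadChip term. A gene of small spread passes both more easily, so the 0.658% supports no link between ZDON and the line difference.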

How the data were processed

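Each of the 23 samples was measured on 1 Illumina mouse bead array. The deposited table of raw data gives an intensity per probe and array, made in BeadStudio of unstated version per the submitters' processing notes. The series matrix gives the authors' log2 values, for which no source used here names the normalization. They differ by at most 0.0257 from the log2 of the quantile-normalized intensities. In the raw table, 1 array column belonged to no labelled sample and was left out. No source states a background subtraction by the authors, and no detection p-values were used.

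With limma 3.58.1 (R 4.3.3), the normexp background correction (offset 50) was followed by quantile normalization and log2. Of 24611 probes, 19851 had 1 gene symbol, all matched to RefSeq by gene ID. Probes above the array median on at least 2 arrays were kept, and the probe with the highest mean stood for each gene. The 23 arrays were fitted together, with means for 8 groups and a term for the BeadChip that left 13 residual degrees of freedom, and p-values were adjusted by Benjamini-Hochberg over 9849 genes. The probe that the intensity table calls 18S rRNA carries the symbol of another gene in the platform annotation, and was given no gene name. Levels of different probes are not compared.

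The sample descriptions place same-numbered replicates on 1 BeadChip, which is where the pairing comes from. After group means were removed, the deviations of same-numbered ZDON and control arrays of Q111 correlated at 0.22, −0.02 and 0.37 across genes. Differently numbered pairs of these arrays lay between −0.38 and 0.31. The 0.31 was that of ZDON replicate 2 with control replicate 1, above the −0.02 of ZDON replicate 2 with its own chip's control. Over all groups the median was 0.21 for the same number (72 of 77 pairs above 0) and −0.11 for different numbers (44 of 154). Deviations within a group sum to 0, so the first value pushes the second below 0. The −0.11 is therefore no separate support for the pairing.

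Named genes were up to 12 called genes each way whose chips ran in 1 direction, up to 4 per list with the smallest adjusted p, up to 4 each way for the other comparisons, and Tgm2, Htt, Bdnf, Ppargc1a and Cycs. Genes at the ends of a range and values in further comparisons were chosen after they were seen. The arrays, lists and rules were chosen with earlier results of these data known. The fit was run on data simulated from the same model, block included, so that run cannot test the choice of the block. Alternatives left out the block, the filter, the background correction or each array in turn, used median scaling or the deposited log2 values, or fitted the compared arrays alone.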

Additional observations from a re-analysis of the deposited data

Results flagged for a closer look

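The 2544 probes without a gene symbol that passed the filter were tested apart from the genes. In Q111, 1 of them passed the threshold for ZDON against control, lower with ZDON (adjusted p = 0.0493, limma), and 251 had an unadjusted p under 0.05. It was singled out because it lies outside the genes described above, and the tables used here give it no gene.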

How the results depend on the processing

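For ZDON against control in Q111, 37 genes passed with no background correction and 37 with the authors' deposited log2 values, which included all 18 in both cases. The values of these settings differ by at most 0.0257, so they are not separate checks. With median scaling 8 passed (all among the 18), and with no filter 13 of 19851 probes did (12 of their genes among the 18). Without the replicate block 0 passed, and 0 with the compared arrays alone, where 917 genes had an unadjusted p under 0.05 in limma. Leaving out 1 array gave 2 to 49 genes; the high counts came without Q111 cystamine replicate 3 (49), Q7 control replicate 3 (43), Q7 ZDON replicate 2 (38) or Q7 ZDON replicate 3 (33), and leaving out arrays of groups other than the 2 compared was added after seeing the data. Of the 18, 2 passed without any 1 of the 6 compared arrays, 8 passed in some of these fits and 8 in none. A further 21 genes had an adjusted p between 0.05 and 0.06, 4 of them histone genes. In Q7, 2 genes passed without the replicate block, 2 with median scaling and 1 with the compared arrays alone, and 1 to 11 when 1 array was left out. For ZDON against Boc-DON the counts were 0 without the replicate block, 0 with the compared arrays alone, 12 with median scaling and 3 with no filter, and 0 to 6 when 1 array was left out. The difference between the lines stayed at 0 genes in every alternative run. The share of line genes towards Q7 lay between 44.2% and 54.9% when 1 array was left out. The sign turned for 3 uncalled genes when an array was left out: Tgm4, whose difference lay between −0.0732 and 0.1655 over these fits, Drd2, between −0.0207 and 0.3581, and Bdnf, between −0.0827 and 0.2183. Median scaling moved the median of all genes to 0.02. The cause of these changes was not tested. With 3 arrays a group and no detection p-values, small changes and genes near the background could not be resolved.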

Other observations

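Psmc1, an ATPase subunit of the proteasome, was singled out after its values were seen. Its log2 level was 6.49, 6.49 and 11.73 on the ZDON arrays of Q111 and 7.63, 11.19 and 11.26 on the control arrays. The arrays of each group lay far apart, and the groups overlapped. The difference of −1.79 ± 1.29 had an adjusted p of 0.678 in limma. The other proteasome ATPase named by rule, Psmc4, stood at 0.22 (adjusted p = 0.443).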
